A study of Mus musculus with 18 samples.

Results

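Gata6 and Sim1 were followed as the loci of broad H3K4me3 domains that were shorter in Men1 knockout islets than in control islets. Both genes were chosen by the measured difference in length between the 2 genotypes, so their shortening is a description here and carries no test. Members were the peaks that overlapped a 150 kb window at Gata6 (chromosome 18, mm9) or a 200 kb window at Sim1 (chromosome 10, mm9). The windows held 3 of 21434 peaks in the knockout list (1 at Gata6 and 2 at Sim1) and 4 of 21905 peaks in the control list (2 at each gene). The knockout library came from pancreatic islets of mice with a Men1 knockout that the labels call islet-specific. The control library came from islets of RIP-Cre mice, in which the rat insulin promoter, active mainly in beta cells, drives Cre recombinase. Mice of both groups were 2 months old and of mixed strain background (C57BL/6, FVB/N and 129s6), and both libraries were made with the same lot of H3K4me3 antibody. The labels do not say which promoter drove Cre in the knockout, whether the RIP-Cre mice carried a floxed Men1 allele, or how many animals gave each library. The series has 18 samples from 6 conditions, and the 16 samples other than this pair were not analysed here. There was 1 library per genotype, so nothing below could be checked against a replicate, and no test was run.

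Trimethylation of lysine 4 of histone H3 marks the starts of active and poised genes, and wide domains of it tend to lie over genes that define a cell's identity or its development. Menin, the product of Men1, is a subunit of the KMT2A and KMT2B methyltransferase complexes that place this mark. GATA6 is a zinc finger transcription factor that acts with GATA4 in pancreatic progenitors of the mouse, and heterozygous loss in people can cause agenesis of the pancreas. SIM1 is a transcription factor of the basic helix-loop-helix PAS family, best known in the mouse for the formation of neurons of the paraventricular nucleus of the hypothalamus.

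The start of Sim1 is shown because H3K4me3 domains usually lie over stretches rich in CpG, the dinucleotide that the CXXC domain of KMT2A and KMT2B binds when it is unmethylated. The RefSeq promoter window covers 250 bases before to 50 bases after the start, at chr10:50895401-50895700 on the plus strand of GRCm38.p6. That position belongs to another build than the peaks and cannot be laid over them. Capitals mark each CG.

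Sim1: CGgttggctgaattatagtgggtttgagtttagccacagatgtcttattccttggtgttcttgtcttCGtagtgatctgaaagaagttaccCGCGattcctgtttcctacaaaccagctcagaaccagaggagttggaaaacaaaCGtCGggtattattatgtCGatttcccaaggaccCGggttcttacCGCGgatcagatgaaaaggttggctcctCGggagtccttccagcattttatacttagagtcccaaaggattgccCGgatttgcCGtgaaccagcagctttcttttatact

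These 300 bases hold 13 CG, against a median of 7 over the 32851 promoter windows of the same table, and 62.1% of those windows hold fewer. Their GC content was 46%, against a median of 52.7%, and 25.1% of windows had less. The ratio of observed to expected CG was 0.821, against a median of 0.384, and 80.9% of windows had a lower ratio. The window thus combined a GC content in the lower part of the range with more CG than most windows. TATAAA was found 2 times, both on the minus strand, and 13.6% of all windows hold it on either strand. Neither CCAAT nor GGGCGG was found on either strand, and they occur in 37.4% and 35.7% of windows. The motifs do not overlap one another. The promoter table matched 1 of the 2 genes, and no sequence is shown for Gata6. In the gene order of GRCm38, Sim1 is flanked on the lower side by the lncRNA A230054N11Rik and then Ascc3, a helicase subunit gene, and on the higher side by the lncRNA Gm35917 and the snRNA gene Gm26257. Gata6 overlaps the lncRNA gene Gata6os on its lower side, with the lncRNA 9130001E16Rik beyond it, and is followed by the lncRNA Gm35918 and by Rbbp8, a gene of DNA end resection.

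At Gata6, H3K4me3 lay in 1 peak in knockout islets and in 2 peaks in control islets. The knockout peak spanned chr18:11051844-11055595, a width of 3752 bp. The control domain spanned chr18:11047954-11057401, a width of 9448 bp. The knockout peak lay wholly inside the control domain and covered 39.7% of it, a log2 ratio of knockout over control of -1.33. The score, the authors' own value for each peak, was 3100 in both lists, which is the value at which many peaks are tied. The shorter peak at Gata6 thus had the same score as the longer one, although a tied score cannot show a difference beyond it. By width, the knockout peak ranked 915 of 21434 peaks and the control domain ranked 14 of 21905. Gata6 was among the broadest domains in control islets, and its knockout peak was still wider than 95.7% of the knockout list.

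Both edges of the Gata6 domain lay further in. The left edge of the knockout peak was 3890 bp inside the control edge and the right edge was 1806 bp inside, so the left side held 68.3% of the shortening. The midpoint of the knockout peak was 1042 bp to the right of the control midpoint. In GRCm38 the lower side of Gata6 is the side of Gata6os, but without an annotation of mm9 the edges were not placed relative to either gene.

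The control list had 1 further peak at Gata6, on the right of the domain. It spanned chr18:11058427-11059844, was 1418 bp wide and scored 516.89. It began 1025 bp beyond the right edge of the control domain and 2831 bp beyond the right edge of the knockout peak, and no knockout peak overlapped it. Over the whole control list, 2775 of 21905 peaks (12.7%) had no knockout partner. Most of those were weaker and narrower than the peak at Gata6, which scored above 98.1% of them and was wider than 95.3%. Their median score was 98.4 and their median width 805 bp. Of the control peaks that lay within 5 kb of another control peak, 736 of 4674 (15.7%) had no knockout partner, and among 353 such peaks with a score within 25% of 516.89 this held for 19 (5.38%). With the flanking peak included, the window covered 3752 bp in knockout islets and 10866 bp in control islets, so that 34.5% of the control length was marked in knockout islets.

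**Figure D1:**
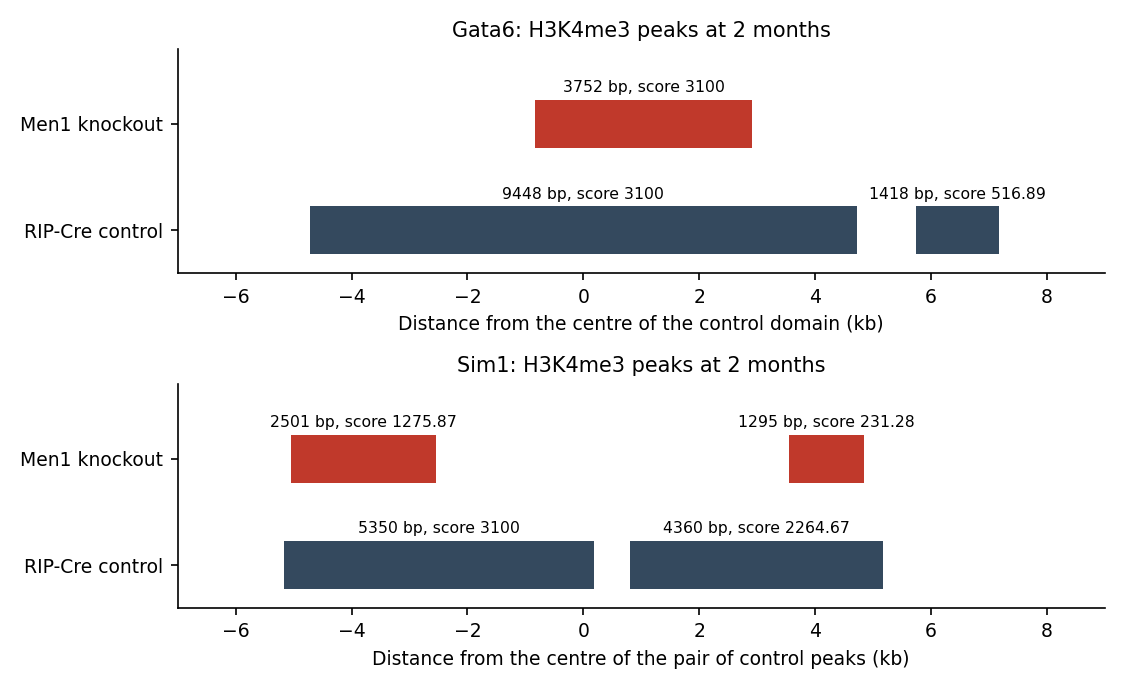
H3K4me3 peaks at Gata6 (top) and Sim1 (bottom), drawn to scale against the distance in kb from the centre of the control domain or of the pair of control peaks, with the width in bp and the authors' score above each peak. In each panel the upper row is the Men1 knockout list and the lower row the RIP-Cre control list (1 library each); the knockout peak of 3752 bp lies inside the Gata6 domain of 9448 bp, and the outer edges of the Sim1 peaks lie 135 and 325 bp further in, while the space between them is 6087 bp in knockout and 633 bp in control islets.

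At Sim1, H3K4me3 lay in 2 peaks in each genotype, and each knockout peak lay inside a control peak. The left peak spanned chr10:50613667-50616167 in knockout islets, a width of 2501 bp with a score of 1275.87. In control islets it spanned chr10:50613532-50618881, a width of 5350 bp with a score of 3100. The knockout covered 46.7% of the control length, a log2 ratio of -1.10. The right peak spanned chr10:50622255-50623549 in knockout islets, a width of 1295 bp with a score of 231.28. In control islets it spanned chr10:50619515-50623874, a width of 4360 bp with a score of 2264.67. Here the knockout covered 29.7% of the control length, a log2 ratio of -1.75. No peak at Sim1 was in 1 list alone. Most control peaks had a knockout partner (2775 of 21905, or 12.7%, had none), so nothing is read from that. Both peaks at Sim1 had a lower length and a lower score in knockout islets.

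The edges that receded at Sim1 were the inner ones. On the left peak the outer edge was 135 bp further in and the inner edge 2714 bp further in. On the right peak the outer edge was 325 bp further in and the inner edge 2740 bp further in. The gap between the peaks was 6087 bp in knockout islets and 633 bp in control islets, a difference of 5454 bp. The outer borders of the locus differed by less than the inner ones, with a span from the first to the last base of 9883 bp in knockout islets and 10343 bp in control islets. The covered length within that span was 3796 bp in knockout islets and 9710 bp in control islets, or 39.1% of control, a log2 ratio of -1.35. Taken as a whole locus, the ratio at Sim1 was thus close to that at Gata6 (-1.33), while the layout differed: marked length was missing from the middle of the Sim1 locus and from the outer sides of the Gata6 domain.

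**Figure D2:**
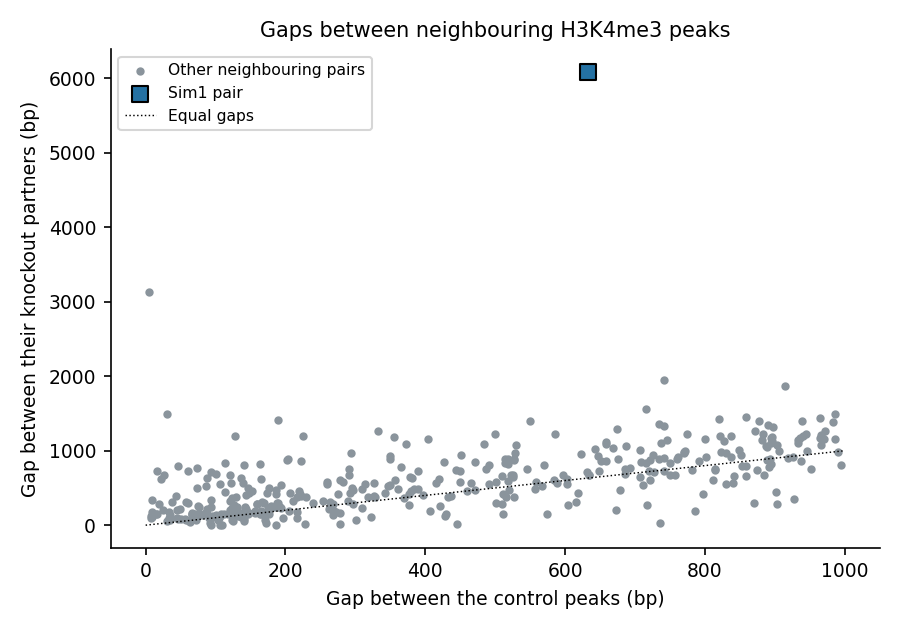
Gap in bp between neighbouring H3K4me3 peaks, for 394 pairs of control peaks at most 1 kb apart that each had exactly 1 knockout partner, with the gap between the knockout partners on the vertical axis and that between the control peaks on the horizontal axis. Each point is 1 pair and the dotted line marks equal gaps; the Sim1 pair (blue square) stands at 6087 bp in knockout islets and 633 bp in control islets, above every other pair.

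The gap at Sim1 was set beside 394 pairs of neighbouring control peaks that were at most 1 kb apart and each overlapped 1 knockout peak. The gap was wider in knockout islets in 291 of these pairs, with a median difference of 113.5 bp and a 95th percentile of 677 bp. The difference of 5454 bp at Sim1 ranked 1 of 394, and the next was 3125 bp. Pairs chosen for a short control gap favour a wider knockout gap. Chosen instead for a knockout gap of at most 1 kb, a choice made after seeing the data that leaves the Sim1 pair out, 226 of 347 pairs had the wider gap in knockout islets, with a median difference of 65 bp. Chosen by a mean gap of at most 5 kb, also after seeing the data, 1074 of 1494 pairs had the wider gap in knockout islets, and Sim1 ranked 1 of 1494. Over all neighbouring peaks of a list, paired or not, a gap of at most 1 kb was more frequent in the knockout list (5.61% of gaps) than in the control list (4.07%). The locus was chosen for its loss of length, so its rank is a description.

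Length ratios were then ranked among regions of similar width. Peaks of both lists that touched were joined, which gave 18968 regions marked in both lists with a median log2 ratio of -0.11 (SD 0.29 over regions). The Gata6 domain and the left and right Sim1 regions each had at most 50% of their control length in knockout islets, as did 235 of the 18968 regions (1.24%). Since the genes were chosen on this contrast, nothing is read from that count. For each domain, similar width meant a control length within 25% of its own.

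Among the 59 regions with a control length of 7086 to 11810 bp, the Gata6 domain had the lowest ratio. The median log2 ratio of these regions was -0.02 (SD 0.26), so the median region had 98.6% of its control length in knockout islets, and 26 of 59 were longer in knockout islets. The next lowest ratios were -0.80 at chr12:39504231-39511703, with 4211 bp in knockout and 7325 bp in control islets, and -0.59 at chr7:13428360-13436016, with 5087 and 7657 bp in knockout and control islets. The other 2 of the 5 lowest were chr11:18913649-18921533 at -0.57 and chr10:21711236-21719373 at -0.53. No region of this width other than Gata6 had 50% or less of its control length. In base pairs, Gata6 was second of all 18968 regions, with 5696 bp fewer in knockout islets. The first was chr2:115880751-115894747, with 6868 bp in knockout and 13997 bp in control islets.

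The left Sim1 region ranked 9 of 889 regions with a control length of 4013 to 6687 bp (1.01%). The locus was chosen on this contrast, so its ranks are a description. The median log2 ratio in this band was -0.09 (SD 0.23), and 189 of the 889 regions were longer in knockout islets. The right Sim1 region lay in the same band, where it had the second lowest ratio. The lowest was -2.03 at chr8:96790164-96794441, and the next after Sim1 were -1.75 at chr13:72095477-72102134, -1.44 at chr6:112435152-112441483 and -1.36 at chr13:72763979-72770625. In its own band of 3270 to 5450 bp, the right Sim1 region ranked 4 of 1979 (0.202%), where the median log2 ratio was -0.10 (SD 0.22). The lowest 3 were chr13:63373209-63377147 at -2.35, chr7:127317037-127320397 at -2.19 and the region on chromosome 8, and the fifth was chr1:162174683-162177974 at -1.68. With peaks at most 1 kb apart joined, the whole Sim1 locus ranked 1 of 73 regions with 7283 to 12137 bp in control islets. The Gata6 domain came second in that band, followed by chr13:72761067-72770625 at -1.07, chr12:39504231-39513104 at -0.99 and chr1:191991296-191999743 at -0.94.

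**Figure D3:**
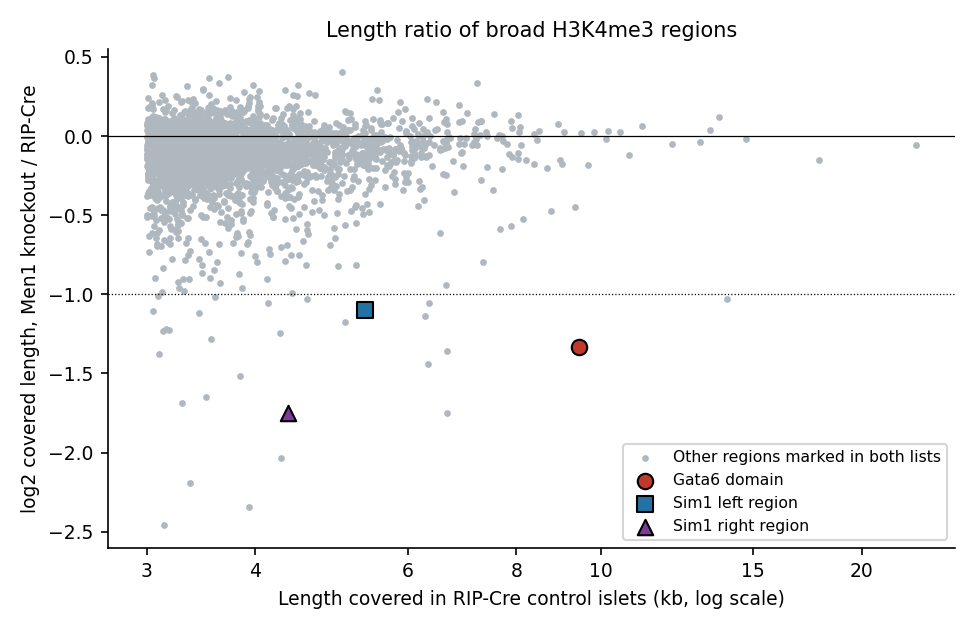
Log2 of the H3K4me3 length covered in Men1 knockout over RIP-Cre control islets, against the control length in kb on a log axis, for joined regions marked in both lists with a control length of 3 kb or more. Each grey point is 1 region, the solid line marks equal length and the dotted line 50% of the control length; Gata6 (red circle, -1.33) and the left (blue square, -1.10) and right (purple triangle, -1.75) Sim1 regions lie below the dotted line, with few regions beside them.

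The edges were compared over the same bands. Among the 59 regions as wide as Gata6, the left knockout edge lay a median of 42 bp outside the control edge (-42 bp) and the right knockout edge 105 bp inside. The 3890 bp at the left of Gata6 ranked 1 of 59, and the 1806 bp at its right ranked 2 of 59. Both edges lay 1 kb or more inside in 3 of the 59 regions, Gata6 included. The knockout length lay wholly within the control borders in 18 of the 59 (30.5%). Among the 889 regions as wide as the left Sim1 region, the median shift was 117 bp inward at the left and 109 bp inward at the right. The right edge of the left Sim1 region, at 2714 bp, ranked 3 of 889, while its left edge, at 135 bp, ranked 404 of 889. No region of that band had both edges 1 kb or more inside, and 35 had the left and 31 the right edge that far inside. In the band of the right Sim1 region, its left edge, at 2740 bp, ranked 1 of 1979, and its right edge, at 325 bp, ranked 323. At Sim1 the outer edges lay further in by amounts that many regions of their bands exceeded, while at Gata6 both edges were near the end of the range. The shifts are parts of the loss of length for which both loci were chosen, so these ranks are a description.

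**Figure D4:**
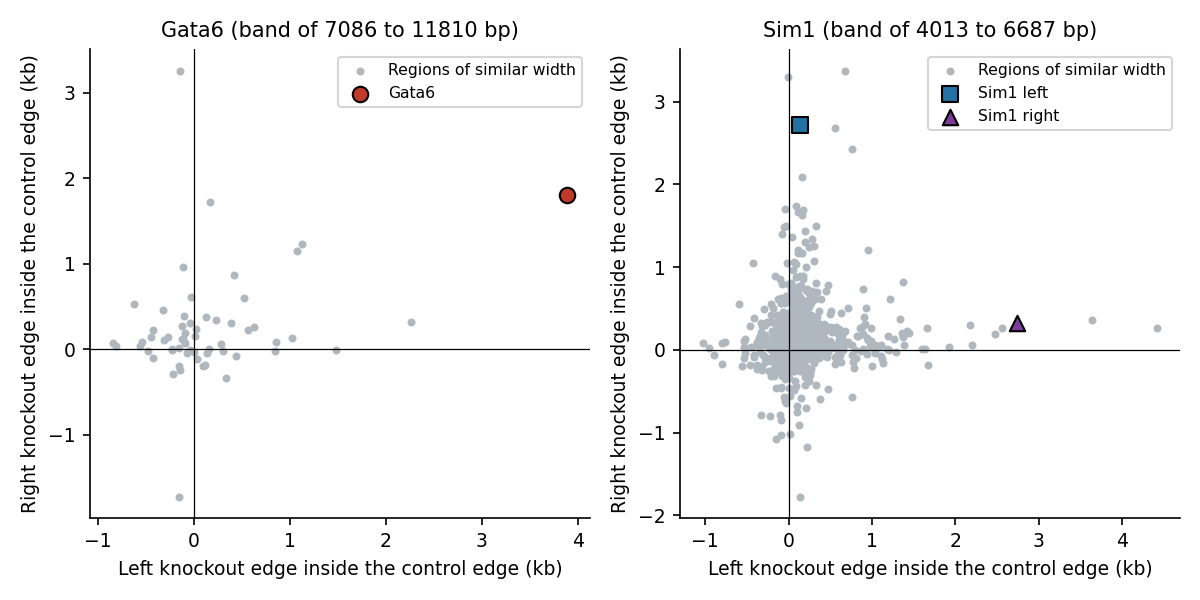
Distance in kb by which the left (horizontal) and right (vertical) knockout edge lay inside the control edge, for the 59 regions of 7086 to 11810 bp in control islets (left panel) and the 889 regions of 4013 to 6687 bp (right panel); values below 0 lie outside the control edge. Grey points are single regions; Gata6 (red circle) is displaced on both axes, at 3.89 and 1.81 kb, the left Sim1 region (blue square) on the vertical axis, at 2.71 kb, and the right Sim1 region (purple triangle) on the horizontal axis, at 2.74 kb.

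All 39 unsplit control domains as wide as Gata6 and scored at 3100 or more, Gata6 included, had a knockout partner at 3100 or more, so at this tied score the class shows no spread and the score says nothing on a difference at Gata6. Of the 705 control peaks as wide as the left Sim1 peak with a score of 3100 or more, 682 (96.7%) had a knockout partner at that score too. The knockout score of 1275.87 at the left Sim1 peak was among the lowest 3 of the 705 partners. For the right Sim1 peak, control peaks were paired in the same way, with a score within 25% of its own and no match for width. Their knockout partners had a median score of 1666, and the 231.28 at Sim1 was among the lowest 9 of 1854. All of these sets, that for Gata6 included, left out control peaks that were split or had no knockout partner. Within the knockout list, the Sim1 peaks scored above 46.4% and 24.8% of all peaks, left and right. Within the control list they scored above 58.7% and 52.2%. A score of 3100 or more was less frequent in the knockout list as a whole, at 33.4% of peaks against 41.3% in the control list. Read depth is unknown, so scores of the lists are set side by side and no difference in H3K4me3 is read from them.

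Taken from their outer peaks, both loci stood further from peaks outside the locus than the median gap between neighbouring peaks. Gaps within a locus, such as 633 bp at Sim1 in the control list, were left aside here. The median gap given below includes such short gaps. On the left of Gata6 the nearest peak lay 182 kb away in the knockout list and 319.8 kb away in the control list. That knockout peak was 665 bp wide, scored 131.9 and had no control partner. On the right of Gata6 the nearest peak lay 184 kb from the knockout peak and 179.6 kb from the flanking control peak. On the left of Sim1 the nearest peak lay 299.9 kb away in the knockout list and 129.5 kb away in the control list. That control peak was 776 bp wide, scored 68.8 and had no knockout partner. On the right it lay 249.6 kb away in the knockout list and 249.3 kb in the control list. The median gap between neighbouring peaks was 40.4 kb in the knockout list and 38.3 kb in the control list, and 73.6% and 75.2% of gaps, knockout and control, were under 100 kb. The 90th percentile of gaps was 256 kb in the knockout list and 239 kb in the control list. The gaps beside both loci were thus all above 100 kb, but only that on the left of Sim1 in the knockout list, and those on the left of Gata6 and on the right of Sim1 in the control list, passed the 90th percentile of their own list. The choice of genes did not use these distances.

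Most regions around the domains were also shorter in knockout islets, but less so than the domains. The domains were chosen for their loss of length, so the smaller loss of their neighbours follows from that choice. Within 1 Mb of Gata6, outside its window, 12 regions were marked in both lists, with a median log2 ratio of -0.30 and a range of -0.52 to -0.13. The widest covered 3303 bp in knockout and 4330 bp in control islets (-0.39). Within 1 Mb of Sim1, 4 other regions were marked in both lists, with a median of -0.32 and a range of -0.61 to 0.08. Both medians were below that of all 18968 regions (-0.11, SD 0.29 over regions), which were not matched for width. The median near Sim1 rests on only 4 regions. The widest was chr10:51395614-51401774, with 4526 bp in knockout and 6161 bp in control islets (-0.44), and its left and right edges lay 898 and 737 bp further in. None of these neighbouring regions had 50% or less of its control length, which held for only 235 of all 18968 regions (1.24%). The 12 regions near Gata6 were all shorter in knockout islets, as were 3 of the 4 near Sim1. With a median of -0.11, most of all 18968 regions were shorter too, so nothing is read from these counts. These neighbours were mostly narrower than the domains, with median control lengths of 1800.5 bp near Gata6 and 1815 bp near Sim1.

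Islets are a mixture of cell types, and in such a sample a mark lost from some cells, fewer cells of a type that carries it, and a weaker mark in every cell cannot be told apart. Cre under the insulin promoter would leave Men1 intact in other islet cells. The tissue label was not checked against marker genes, because the gene table at hand describes another build.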

How the data were processed

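Peak lists of 2 H3K4me3 libraries were used. The tissue was fixed, sonicated and immunoprecipitated, and the DNA was made into Illumina libraries, per the labels' protocols. Alignment and peak tools were Bowtie and MACS 1.4.2 with build mm9, per the submitters' processing notes. Not given in the sources used here are the use of the input as control, filters and pooling of animals. The authors deposited, per peak, a position and a score, with no read counts, so depth is unknown. MACS 1.4.2 writes minus 10 times log10 of the p-value as score; the deposited lists do not state the scale. The lists were matched to samples by genotype, age and mark, and 0 per-sample columns were left unused. Their names also hold an unexplained "2nd".

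Positions are counted from 1. Touching peaks of both lists were joined, a peak was shared at 1 bp of overlap, and similar width meant a control length within 25%. In each such band the 5 regions with the lowest ratio are named. Genes beside the loci come from the GRCm38 gene table, by order alone. Scripts used Python 3.11.15, pandas 2.3.3, numpy 2.4.6, scipy 1.17.1 and matplotlib 3.10.9, and were tested on simulated data. Genes, lists and settings were chosen with earlier results of these data known.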

Additional observations from a re-analysis of the deposited data

How the results depend on the processing

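Of 43 recomputed values, 31 stayed the same, 12 moved and 0 changed direction. Some of the 43 could not differ. Gata6 and the left Sim1 region each paired 1 peak of each list, so their span and single-pair width equalled the main value. A score minimum of 100 lay below the score of every member peak. Joining within 1 kb could not reach the Gata6 flanking peak, 1025 bp away. Both loci were chosen for being shorter in knockout islets, so the unchanged direction is a description. A length or edge counted as the same when it was equal, and a count when it stayed within 1.5 times. A rank counted as the same inside the exact 95% binomial interval of its percentage, used only as a tolerance. That interval was 0.464 to 1.91% for the left Sim1 region and 0.0429 to 9.09% for Gata6. It is so wide for Gata6 that ranks at 0.328% and at 7.69% both counted as the same. For Gata6, the log2 length ratio of -1.33 was -1.53 both with peaks up to 5 kb apart joined and over the whole window, and the right edge then lay 4249 bp in, in place of 1806 bp, because the flanking control peak was added. For Sim1, the ratio of -1.10 for the left region was -1.35 with peaks up to 1 kb or 5 kb apart joined and over the whole window, and the right edge then lay 325 bp in, in place of 2714 bp, because both peaks formed 1 region. With windows extended by 100 kb, flanking peaks at Gata6 numbered 1 in the knockout and 2 in the control list, in place of 0 and 1. At Sim1 the control list then had 2 in place of 1, the other peak of the locus counted as flanking. Ranking by the mean length of both lists, which does not favour regions that were long in control islets, placed the left Sim1 region 7 of 2514 (0.278%) and Gata6 1 of 305. With a band of 50%, Gata6 ranked 4 of 461. No Sim1 knockout peak reached the median score of its list, so the alternatives restricted to such peaks gave no value for Sim1. No paired analysis was possible because there was only 1 library of each genotype, and no library could be left out. Depth is unknown, so it was not established whether the missing stretches were beyond detection in the knockout library.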
